A study of Arabidopsis thaliana with 72 samples.

Results

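GΨG sites are pseudouridines (Ψ) with a G on each side. They were taken from a list of 8512 Ψ sites mapped by bisulfite-induced deletion sequencing (BID-seq) in 9 tissues of *Arabidopsis thaliana*, as the sites on nuclear chromosomes 1 to 5 whose stated 7-base motif has the modified base in the middle and G directly before and after it. This rule, which uses no measured value, gave 716 sites among 8275 nuclear sites (8.65%). The other 7559 nuclear sites serve for comparison, together with GΨA (605 sites), GΨC (549 sites) and UΨG (1120 sites), which each share a neighbouring base with GΨG. All plants were col-0. Poly(A)-tailed RNA came from seedlings (7 days), shoots (14 days), roots (14 days), rosetta leaves (30 days), and cauline leaves, stems, flowers, siliques and mature dry seeds, in 56 libraries treated with bisulfite and 16 left untreated as input. Replicates were pooled within a tissue by the authors, so each site has 1 Ψ fraction (the share of molecules modified, between 0 and 1) and 1 pass or fail of their filter per tissue. Sites are described as called where they passed.

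Ψ is an isomer of uridine in which the base is joined to the sugar through carbon instead of nitrogen. It pairs like U, and it is made either by stand-alone pseudouridine synthases, which read sequence and structure around the target, or by H/ACA ribonucleoproteins, in which a small nucleolar RNA guides the enzyme by base pairing. The bases beside a Ψ are therefore a common way to sort sites by the enzyme that may have made them. In BID-seq, bisulfite adds to Ψ, and reverse transcriptase then skips the base, so that modified molecules give reads with a deletion.

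The most frequent setting of a called GΨG was GGΨGUAG, and its sites are shown first because much of what follows turns on them. Each line gives 29 bases of the sense strand of TAIR10.1 (RefSeq), 5′ to 3′, with U written as T and GGTGTAG in capitals. The third capital is the modified base.
ATR1, chr4:12663645-12663673, minus strand: tgctcttctttgGGTGTAGaaatcgacag
GUT15, chr2:7996697-7996725, minus strand: aattgagattagGGTGTAGaagatgtttt
DRT101, chr5:5981873-5981901, plus strand: gtgcttaatgaaGGTGTAGgtgctgattt
RBR1, chr3:3916814-3916842, minus strand: aaaggtgacaaaGGTGTAGacttggttgc
HCA2, chr5:25257544-25257572, minus strand: ggtctgaatcacGGTGTAGgtcttaacaa
OSB4, chr1:11055014-11055042, minus strand: cacaaagaaaccGGTGTAGgtctctggct

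The following windows belong to GΨG sites outside this setting that were called in all 9 tissues, with GTG in capitals and its T the modified base.
AT3G41768 (18S ribosomal RNA), chr3:14198024-14198052, plus strand: atggtggtaacggGTGacggagaattagg
NIT1, chr3:15988510-15988538, plus strand: tcccaaggtggaaGTGtcattatttcacc
AAE3, chr3:18159114-18159142, minus strand: ggcagctttcaagGTGccaaagagagtgt
AT1G01100, chr1:50444-50472, minus strand: ccagctgctggcgGTGgtgcggcagctgc
FBA6, chr2:15297191-15297219, minus strand: gtgttcttgtctgGTGgacagagcgagga

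Of the 716 listed GΨG sites, 688 were called somewhere and 28 nowhere, a share of calls that stood at 97.5% over all nuclear sites. Calls per tissue numbered 233 in root, 200 in flower, 177 in stem, 174 in seedling, 172 in shoot, 157 in seed, 124 in silique, 118 in rosetta leaf and 111 in cauline leaf. GΨG was thus called about as often as nuclear sites in general: 32.5% of the listed GΨG sites were called in root against 31.7% of all nuclear sites, 15.5% against 18.3% in cauline leaf, 24.3% against 25.8% in seedling, 24.0% against 21.9% in shoot, 16.5% against 19.4% in rosetta leaf, 24.7% against 23.5% in stem, 27.9% against 29.1% in flower, 17.3% against 19.3% in silique and 21.9% against 17.9% in seed. GΨG made up 8.53% of the nuclear sites called anywhere. Its share of the calls of a tissue was highest in seed, at 10.6% (95% Wilson interval 9.13 to 12.3), and lowest in cauline leaf, at 7.32% (6.12 to 8.74). These intervals cover the counting of sites only, and with 1 pooled column per tissue no difference between tissues was tested.

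Most GΨG sites were called in few tissues. 417 of 716 (58.2%) were called in exactly 1 tissue, against 4430 of the 7559 other sites (58.6%), and 58.6% of all nuclear sites. 13 GΨG sites (1.82%) were called in all 9, against 93 other sites (1.23%) and 1.28% of all nuclear sites. In the average tissue 27.0% of the called GΨG sites were called nowhere else, against 27.9% of the other called sites. That difference, averaging -0.84 percentage points ± 4.31 (SD, n = 9 tissues), did not pass the test (exact two-sided sign-flip permutation test over tissues, p = 0.566, also 0.566 after adjustment). Root held 111 and seed 81 of the GΨG sites called only in 1 tissue, and cauline leaf held 17. These sites were 47.6% of the GΨG calls of root against 43.2% of its other calls, 51.6% against 46.8% in seed and 15.3% against 20.5% in cauline leaf.

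Called GΨG sites had lower Ψ fractions than the other nuclear sites in every tissue. The median fraction of GΨG lay between 0.0669 in rosetta leaf and 0.0898 in shoot, with 0.0683 in seed. The medians of the other sites lay between 0.151 in rosetta leaf and 0.210 in seed, so the ranges over tissues did not overlap. Averaged over tissues, GΨG had a median of 0.0791 and the other sites 0.173. The difference of -0.0941 ± 0.0191 (SD, n = 9 tissues) had the same sign in 9 of 9 tissues (exact sign-flip permutation test, p = 0.00391, the smallest this design allows, adjusted p = 0.00508 over 13 such tests). Among called sites with a fraction of at least 0.1, it was -0.0473, lower in 9 of 9 tissues. The upper quartile of GΨG, between 0.128 and 0.169, lay near or below the median of the other sites in each tissue. Tissues share one list of sites and many of the same sites, so the test measures agreement between tissues, not between plants.

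**Figure D1:**
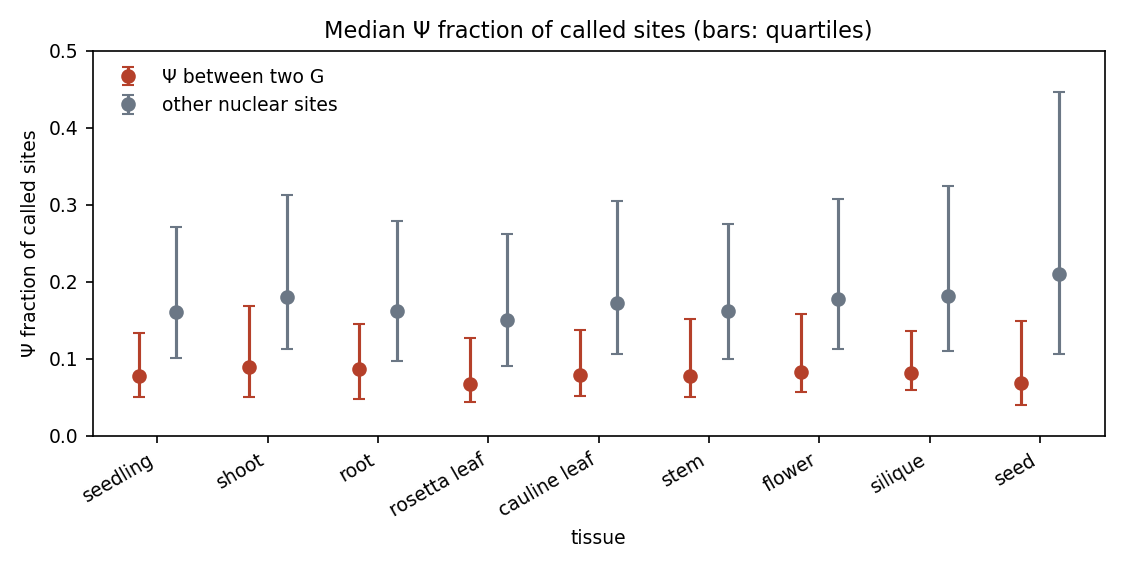
Median Ψ fraction of called GΨG sites (left of each pair) and of other called nuclear sites (right) in each of 9 tissues, with bars from the lower to the upper quartile over sites. The GΨG medians sit between 0.0669 and 0.0898, below the other sites' medians in all 9 tissues.

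Both ends of the scale showed this. Sites with a fraction above 0.5 made up 4.07% of the called GΨG sites of an average tissue and 13.6% of the others (difference -9.54 percentage points ± 3.00, SD over 9 tissues), and sites below 0.2 made up 85.1% against 58.0% (difference 27.1 ± 5.12). Each had 1 sign in 9 of 9 tissues (exact permutation test, adjusted p = 0.00508 each). Set against motifs with a shared neighbour, the median of GΨG differed by an average of -0.0898 ± 0.0237 from that of UΨG, -0.0459 ± 0.0110 from that of GΨC and -0.0432 ± 0.0402 from that of GΨA, lower in 9 of 9 tissues each (SD, n = 9 tissues, adjusted p = 0.00508 each, exact permutation test). With the minimum fraction of 0.1, the difference from UΨG was -0.0261 (lower in 8 of 9 tissues, adjusted p = 0.0152, exact permutation test). The difference from GΨA was -0.305 with that minimum (lower in 9 of 9 tissues), while without sites at the second base of introns, described below, it was 0.0042 and did not pass (adjusted p = 0.809, exact permutation test).

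How the fractions were made bears on every comparison between motifs. The share of reads with a gap was converted to a fraction through a calibration curve, and the values show that the conversion differs with the 5 bases around the Ψ. Of 7296 fraction values between 0 and 1 that occurred more than once on nuclear sites, 6233 (85.4%) occurred in a single 5-base context, out of 244 contexts in all. Among GΨG sites the count was 493 of 499 (98.8%), over 16 contexts. The gap shares themselves were not analysed here, so a low share of gapped reads at GΨG and the curves of its contexts cannot be told apart. Comparisons of sites within 1 context, and of 1 site across tissues, do not depend on this. How many reads lie behind a fraction is unknown.

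The fraction was lower in genes with more mRNA, and GΨG lay below the other sites at each level. Expression is given as TPM, which scales reads by gene length and by library total. In whole tissues, fewer cells that make an mRNA and less of it per cell cannot be told apart. When the called sites of a tissue were split into 5 equal bins by the TPM of the host gene, the median of GΨG averaged 0.163 in the lowest bin, 0.103, 0.0745 and 0.0642 in the next, and 0.0451 in the highest. The other sites averaged 0.364, 0.205, 0.158, 0.122 and 0.0877 in the same bins. GΨG was lower in 9 of 9 tissues in each of the 5 bins, and averaged over bins the difference was -0.0973 ± 0.0140 (SD, n = 9 tissues, exact permutation test, adjusted p = 0.00508). Spearman's rho between fraction and TPM over called GΨG sites ran between -0.79 in seed (153 sites) and -0.48 in shoot (163 sites), against -0.74 to -0.55 for the other sites. Within single contexts of GΨG the relation between the mean fraction and the highest TPM of a tissue with a call had rho of -0.73 in GGΨGU (183 sites), -0.78 in GGΨGG (125 sites) and -0.41 in GGΨGA (64 sites). These are descriptions over sites that share libraries, and the share of gapped reads needed to pass the filter at a given depth was not analysed here.

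**Figure D2:**
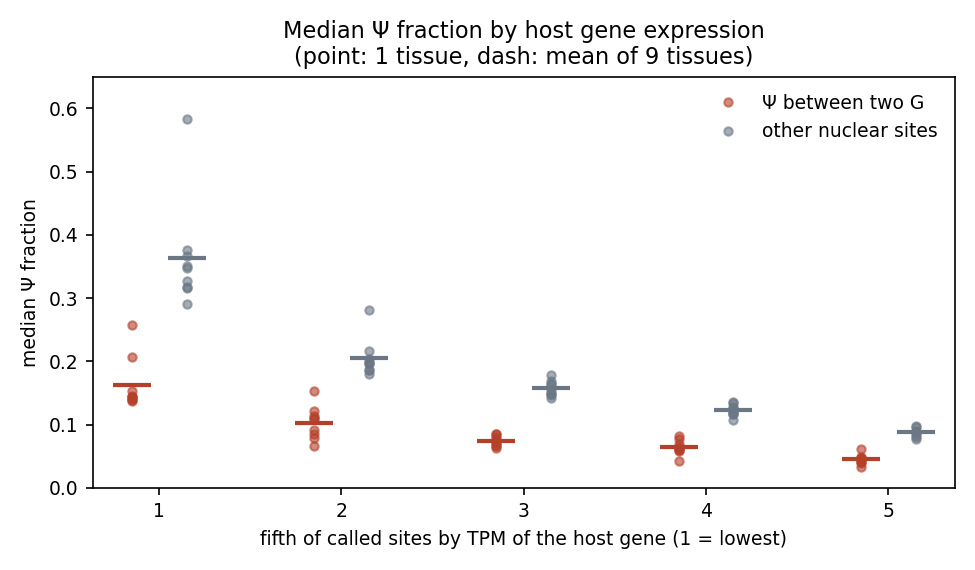
Median Ψ fraction of called sites in 5 equal bins of host gene TPM, GΨG left and other nuclear sites right in each bin, with 1 point per tissue and a dash at the mean of 9 tissues. GΨG averages 0.163 in the lowest bin and 0.0451 in the highest, against 0.364 and 0.0877 for the other sites.

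A difference in expression between host genes of GΨG and of other sites did not pass the test. The median log2(TPM + 1) of the host genes averaged 6.85 for GΨG and 6.73 for the other sites, with a difference of 0.12 ± 0.41 (SD, n = 9 tissues, exact permutation test, adjusted p = 0.550). Seed stood apart, with 8.10 for GΨG and 7.05 for the other sites, and the other 8 tissues had differences between -0.33 and 0.31. Among called sites with a fraction of at least 0.1 the sign turned, with -0.66 (adjusted p = 0.00462), and without the GGΨGUAG sites described next the difference was 0.33 (adjusted p = 0.0323, exact permutation tests).

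GGΨGUAG accounted for 135 of the 688 called GΨG sites (19.6%, 95% Wilson interval 16.8 to 22.8). In the exons of the host transcripts it accounts for 163 of 17001 GTG (0.959%). The same contrast held over genes chosen without regard to calls. In 12739 protein-coding genes that reached 1 TPM in every tissue, 108 of 846 occurrences of GGTGTAG were called (12.8%, 10.7 to 15.2), against 370 of 332305 other GTG (0.111%, 0.101 to 0.123). Where every tissue reached 10 TPM it was 58 of 366 (15.8%) against 245 of 147669 (0.166%), and where every tissue reached 50 TPM it was 7 of 36 (19.4%, 9.75 to 35.0) against 82 of 19029 (0.431%). This setting was chosen after its frequency was seen, so these shares carry no test, and their intervals cover counting only.

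Among GGTGT positions, which share 1 calibration context, the share called differed with the 2 bases that follow. Of the GGTGT in the same 12739 genes, those followed by AG were called in 12.8% and all others in 37 of 20318 (0.182%, 0.132 to 0.251). Calls also differed with the base that follows GGTGTAG. The site was called in 66 of 284 cases where A followed (23.2%, 18.7 to 28.5) and 32 of 150 with G (21.3%, 15.5 to 28.6), against 7 of 197 with C (3.55%, 1.73 to 7.15) and 3 of 214 with T (1.40%, 0.478 to 4.04). The base before GGTGTAG was A at 26.7%, C at 23.7%, G at 23.0% and T at 26.7% of the called sites. These shares do not allow for how often each base precedes the setting. The exons of host transcripts hold 120 TGGTGTA, 69 AGGTGTA, 57 CGGTGTA and 50 GGGTGTA, and the called sites with these motifs numbered 37, 37, 33 and 31. Host transcripts were chosen by having a call, so these counts are no call rates. Beyond GΨG, ΨGUAG was found at 311 called UΨG, 69 CΨG and 52 AΨG sites, which with 153 GΨG sites makes 585 of 8065 called nuclear sites. These were 28.0% of the called UΨG, 35.9% of CΨG, 20.1% of AΨG and 22.2% of GΨG sites. A following GUAG was thus not particular to GΨG. UGUAG is a form of UNUAR, the recognition sequence of the synthase PUS7 in yeast and human, in which the third base is modified. The called base here is the first, and at 0 of the 135 GGΨGUAG sites was the U 2 bases downstream listed as a site. Called sites at the third base of UGUAG numbered 63.

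GGΨGUAG sites had low fractions. Their mean fraction over the tissues with a call had a median of 0.0705 with quartiles of 0.0455 and 0.0932, and 1 site of 135 exceeded 0.5. By tissue, their median fraction lay between 0.0580 in seedling and 0.0715 in cauline leaf. Other GGΨGU sites, which share the calibration context, had a median of 0.0451 (49 sites), and the median of the highest TPM of the host gene was 73.2 for GGΨGUAG and 181 for those others. The sites made up 33.3% of the GΨG calls in cauline leaf (37 of 111) and 12.0% in root (28 of 233). 111 of the 135 lay in coding sequence, 13 in 3′ UTRs and 6 in 5′ UTRs. In the frame of the protein the Ψ was the third base of the glycine codon GGU at 86 sites and the first of the cysteine codon UGU at 24.

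Single sites in this setting differed in how widely they were called. The site in ATR1 (P450 reductase 1, which passes electrons to cytochrome P450 enzymes) was called in 9 tissues with fractions between 0.0406 in seedling and 0.114 in seed. GUT15, a non-coding RNA, was called in 9 tissues between 0.0590 in cauline leaf and 0.0969 in silique, a narrow range. A histone gene, AT4G40040, had the third such site, between 0.0407 and 0.0641. Others were called once. In RBR1, the retinoblastoma-related cell cycle repressor, the fraction was 0.176 in seed, the only tissue with a call, and at most 0.0663 in the other 8. In DRT101 it was 0.184 in cauline leaf, where it was called, and 0.152 in seed, where it was not. The site in HCA2, a Dof transcription factor, had the highest fraction of the setting, 0.631 in cauline leaf, at a TPM of 2.8 there. Its listed fractions elsewhere were between 0 and 0.0580 in 7 tissues, with no value in seed.

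A second group stood at the other end. 27 called GΨG sites lay at the second base of an annotated intron, which is the T of the conserved GT that opens an intron and is removed from the spliced mRNA (1 of them, in UBQ10, lies in coding sequence in the transcript with the longest coding sequence). Their mean fractions had a median of 0.544. By the highest fraction in a tissue with a call, 15 of the 27 exceeded 0.5, among 36 GΨG sites that did, and only 1, in UBQ10, was below 0.2. 23 of the 27 were called in 1 tissue and 4 in 2. Within the context GGΨGA, 18 such sites had a median of 0.579 and the other 48 one of 0.0897. Other motifs had 208 called sites at the same position, with a median of 0.578, so this level was shared with the rest of the list. 27 of the 15999 annotated introns starting GTG and 191 of the 84410 starting GTA held a listed site.

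3 examples show the group and a site elsewhere in an intron, with GTG in capitals, and in AT1G51200 and AT1G74320 the intron starts at the first capital. AT1G51200 (an A20/AN1-like zinc finger protein) was called in silique at 1.00 and uncalled at 0.798 to 0.927 in the other 8 tissues. AT1G74320 (a protein kinase) was called in flower at 0.544, was listed at 0.402 in seed and at 0 in the other 7 tissues. The third, AT4G30100 (a P-loop hydrolase), lies elsewhere in an intron and was called in root at 0.923, with uncalled values between 0.455 and 0.842.
AT1G51200, chr1:18984744-18984772, plus strand: caagggcaaacagGTGaattagcttttgg
AT1G74320, chr1:27942505-27942533, plus strand: atgagttattcagGTGattattttatcac
AT4G30100, chr4:14715600-14715628, plus strand: caggatttggaagGTGatacgattaaatc
The value 0.585536 occurred 9 times among the fractions of GΨG sites, each time in GGΨGA, and 5 of the intron sites had it as their highest fraction. Among all called GΨG sites, highest fractions above 0.5 were found in 6 of 563 coding sites, 0 of 37 sites in 3′ UTRs, 0 of 14 in 5′ UTRs, 20 of 42 in introns, 1 of 2 in other parts of protein-coding genes, and in the rest outside such genes. Other called nuclear sites exceeded 0.5 at 422 of 588 in introns and 254 of 5349 in coding sequence. In 3′ UTRs it was 48 of 607 and in 5′ UTRs 41 of 296.

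**Figure D3:**
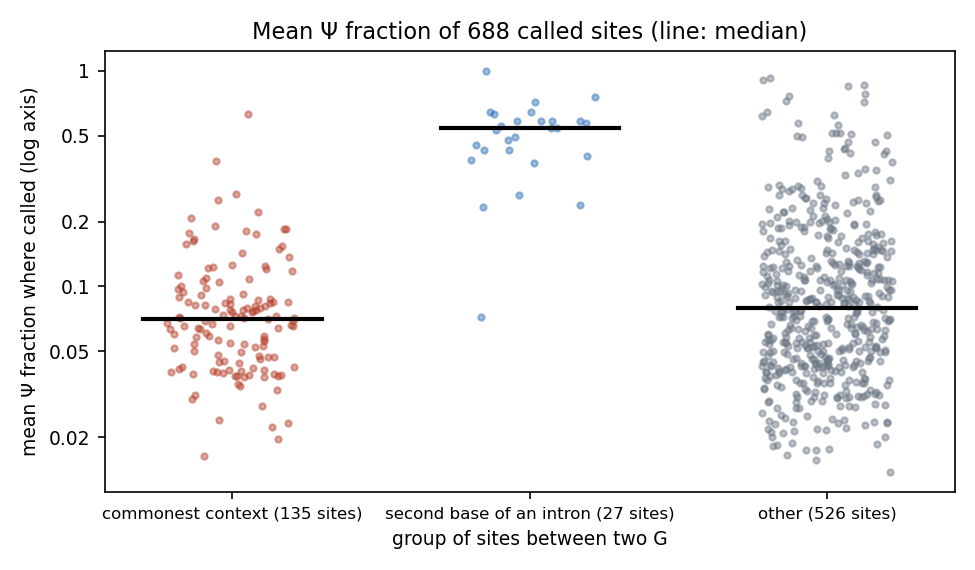
Mean Ψ fraction over the tissues with a call, on a log axis, with 1 point per called GΨG site and a line at the median, for 135 sites in GGΨGUAG (commonest context), 27 at the second base of an intron and 526 others. The medians are 0.0705, 0.544 and 0.0793.

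GΨG sites lay in coding sequence more often than other sites. Of the called sites in exons of protein-coding genes, 92.1% of GΨG and 87.7% of the others were in coding sequence in the average tissue (difference 4.41 percentage points ± 2.61, SD over 9 tissues, higher in 9 of 9, exact permutation test, adjusted p = 0.00508). The difference was close to none in cauline leaf (0.08) and rosetta leaf (0.55), and lay between 3.72 in root and 6.84 in seed in the other tissues. Over all tissues together, 563 called GΨG sites lay in coding sequence, 37 in 3′ UTRs and 14 in 5′ UTRs. In the reading frame, the Ψ of GΨG was the first codon base in 13.7% against 28.6% (difference -15.0 ± 3.22) and the third in 57.0% against 46.4% (difference 10.6 ± 7.30), each with 1 sign in 9 of 9 tissues (exact permutation test, adjusted p = 0.00508). The second base held 29.4% against 25.0%, higher in 8 of 9 tissues (difference 4.40 ± 5.22, adjusted p = 0.0462, exact permutation test), with seed at 19.7% against 27.0%. For the second base the call was lost on leaving out any 1 tissue but seed (differences of 3.81 to 4.79), without which it was 5.87. With a minimum fraction of 0.1 the second-base difference was 15.2 (higher in 9 of 9 tissues, adjusted p = 0.00462), and without GGΨGUAG sites it was 11.5 (8 of 9, adjusted p = 0.00923, exact permutation tests). For the third base the difference was 5.29 without GGΨGUAG sites (adjusted p = 0.0457), and the call was lost among sites with a fraction of at least 0.1 (difference 1.94, adjusted p = 0.566, exact permutation test).

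GTG can be a codon (valine) or span codon borders, so the GTG of the same transcripts give the scale for these positions. In the coding sequences of 565 host transcripts, 11.3% of GTG have their T at the first codon base, 38.6% at the second and 50.1% at the third, against 15.5%, 27.9% and 56.7% of the called sites. On this scale the called sites were more often at the first base and less often at the second. Both directions are the reverse of the tested differences from other sites, whose motifs have frames of their own. Only the third base was higher on both scales. Of the 111 coding GGΨGUAG sites, 86 had Ψ at the third base, 24 at the first and 1 at the second. The comparison with GTG was not repeated without them. The glycine codon GGU held 234 of the 563 coding sites (41.6%) against 24.4% of GTG. The valine codon GUG held 157 (27.9%) against 38.6%. UGG, the tryptophan codon, held 42 (7.46%) against 5.11%. UGU, for cysteine, held 42 with Ψ first (7.46% against 3.84%) and 20 with Ψ last (3.55% against 7.13%). CGU for arginine held 35 (6.22% against 8.09%) and AGU for serine 30 (5.33% against 10.5%). Glycine GGU was thus the codon with the most sites, 86 of them in GGΨGUAG, and its sites had a median fraction of 0.0585 against 0.0881 for valine. These are counts over sites, with no test.

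Genes for glycine-rich proteins, which are built from long glycine repeats and occur in cell walls and seeds, held 34 of the 658 GΨG sites in protein-coding genes (5.17%), in 9 genes, against 36 of 6863 other sites (0.525%). The GTG in these genes were not counted. The shares therefore do not allow for how often the repeats hold GTG, and a preference for these genes was not tested. Most were called in seed, where 25 of the 157 GΨG calls (15.9%) lay in these genes, against 9 of 1324 other calls (0.680%), and between 0 and 2.42% of the GΨG calls of any other tissue. The fractions were low. Within GGΨGG, 28 sites in glycine-rich genes had a median of 0.0251 with the highest at 0.145, and 99 sites in other genes had 0.0581. The host genes of the first had a median highest TPM of 7191, and those of the second 295.

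Of 605 protein-coding genes with a called GΨG site, 576 had 1 site, 23 had 2 and 6 had 3 or more. AT2G05580, a glycine-rich protein gene, had 10, all called in seed, where its TPM was 7191, against 1080 in silique and at most 106 in the other 7 tissues. 3 of the 10 were also called in silique, 1 of these also in seedling (TPM 62.1) and rosetta leaf (TPM 23.7). The mean fractions of the 10 ran between 0.0183 and 0.0712. AT5G35660, of the same family, had 9, all called in seed (TPM 8892) and 1 of them in shoot (TPM 26.3). M17, a glycine-rich late embryogenesis abundant protein made as seeds dry, had 6, called in seed alone (TPM 4399). RAB18, a dehydrin that responds to abscisic acid, had 4, all called in seed (TPM 8742) and 1 in cauline leaf. Together these 4 genes held 29 of the 157 seed calls, 24 of them called only in seed. A call in seed alone did not mean a higher fraction there. At each of the 6 M17 sites an uncalled fraction in another tissue was above that in seed. The site at chr2:17207168 had 0.0523 in seed, with uncalled 0.135 in flower and 0.123 in stem. DOT1, also glycine-rich, differed: 3 of its 4 sites were called in root (TPM 2254), 1 in rosetta leaf (TPM 276) and none in seed (TPM 13.4).
AT2G05580, chr2:2055919-2055947, plus strand: ggcggtggtggtgGTGgccaaggaggaca
M17, chr2:17206989-17207017, plus strand: gagcctcagcaggGTGgccgtggtggtgg
RAB18, chr5:26518960-26518988, minus strand: gggtacggatcagGTGgccaagggtacgg
The windows show the repeats, and that of M17 occurs 3 times in the genome, all within the gene, so that reads could be placed at any of the 3. Of the called GΨG sites, 38 had a 29-base window that occurs more than once. Without the glycine-rich genes, the third codon base held 64.3% of the coding GΨG calls of seed, and the median log2(TPM + 1) of GΨG hosts in seed was 7.55, against 43.3% and 7.04 for the other sites.

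Other gene groups are given as counts with no test. Ribosomal protein genes held 22 of 658 (3.34%, against 3.31% of other sites), with a median fraction of 0.0458 against 0.105. Protein kinase genes held 24 (3.65% against 5.07%, with medians of 0.0885 and 0.208). Heat shock and chaperone genes held 11 (1.67% against 1.40%, with medians of 0.0518 and 0.143) and photosystem and light-harvesting genes 10 (1.52% against 1.65%, with medians of 0.0580 and 0.0676). Zinc finger genes held 12 (1.82% against 1.66%), translation factor genes 8 (1.22% against 0.947%) and histone genes 3 (0.456% against 0.262%).

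The 13 sites called in all 9 tissues allow single sites to be followed across tissues. The highest fractions belonged to AT3G41768, an 18S ribosomal RNA gene, with 0.601 in cauline leaf, 0.720 in seed as the middle value and 0.842 in root, and to AT2G07709, a pseudogene on the part of chromosome 2 that carries a copy of mitochondrial DNA, with 0.463 in flower and 0.793 in stem. The highest value at the other 11 was 0.447, in NIT1. The window of the 18S site occurs at 2 places in the genome, and the RNA was selected for poly(A) tails, so it represents the rRNA left in these libraries (TPM between 1.4 and 19.8). Copies of the AT2G07709 window in the mitochondrial genome were not counted, and whether its reads came from there was not tested.

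Among the mRNA sites, NIT1 (nitrilase 1, which can convert indole-3-acetonitrile to auxin) varied most, with 0.447 in seed and 0.343 in root, against 0.0942 to 0.214 in the other 7 tissues. Its mRNA was least abundant in the same pair, at 109 TPM in seed and 83.7 in root, against 342 to 790 elsewhere. FBA6, a cytosolic fructose-bisphosphate aldolase of glycolysis, also stood highest in seed (0.166) and root (0.161), with 0.0597 to 0.0899 in the others, but its TPM was highest in seed (383) and lowest in root (55.7). AT5G08670, an ATP synthase subunit gene whose window has 2 copies in the genome, ran between 0.0895 in rosetta leaf and 0.337 in root. By contrast AT1G01100, a 60S acidic ribosomal protein gene, stayed between 0.145 and 0.195 while its TPM ran between 169 and 919, and AAE3 (oxalyl-CoA synthetase) between 0.152 and 0.235 with TPM between 110 and 1392. AT2G38870, a potato inhibitor I-type protease inhibitor, ran between 0.0800 in rosetta leaf and 0.158 in seed.

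Seed had the highest fraction at 6 of the 13 sites and root at 3. Rosetta leaf had the lowest at 4 and silique at 3. The ratio of the highest to the lowest tissue had a median of 1.76 over the 13 (range 1.35 to 4.74), against 1.58 over the 93 other shared sites (1.07 to 4.53), and the median of the mean fraction was 0.125 against 0.263. Without replicates per tissue, no spread stands beside these ratios.

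**Figure D4:**
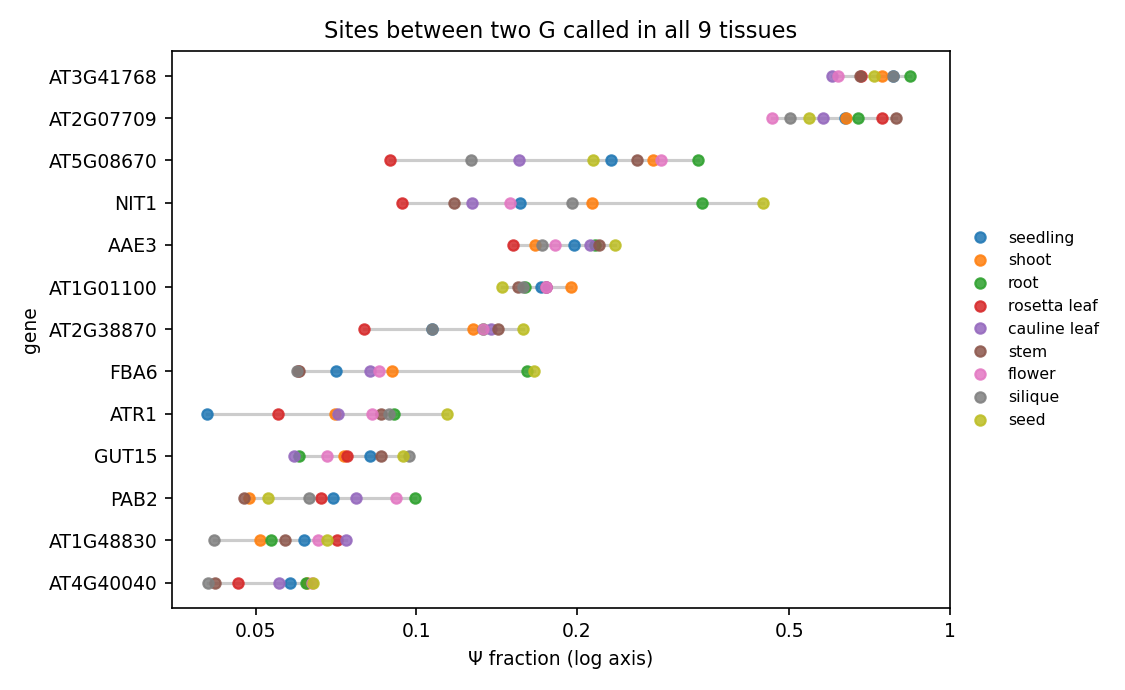
Ψ fraction (log axis) of the 13 GΨG sites called in all 9 tissues, with 1 point per tissue and 1 row per gene. The rRNA and pseudogene sites at the top lie above 0.46 in each tissue, and NIT1 and FBA6 have seed and root to the right of the other tissues.

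At sites called in 1 tissue, the listed fractions elsewhere were often above 0. Among the sites with a value in all 9 tissues, which leaves out that of HCA2, the site with the largest gap to any other tissue was taken for each. In seed it lay in an intron of AT2G40650 (a PRP38 family protein of the spliceosome) with 0.784, and was listed at 0 in the other 8 tissues. In shoot it was AT3G22810, with 0.426 and 0 elsewhere, at a TPM of 3.6. In silique the 5′ UTR site of ATG18G, an autophagy gene, had 0.265 against at most 0.0654 elsewhere. In root EDM2, a chromatin regulator, had 0.187 against at most 0.0765. In stem AT1G05320 had 0.255 against at most 0.101, in cauline leaf OSB4 (an organellar DNA-binding protein) had 0.251 against at most 0.156, in rosetta leaf CLS (cardiolipin synthase) had 0.189 against at most 0.0929, and in seedling SPI (a BEACH domain protein) had 0.193 against at most 0.119. Several of these sites thus had a fraction above 0 in most tissues, with a call in 1.

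Outside protein-coding genes there were 30 called GΨG sites, 19 of them called in 1 tissue, with a median mean fraction of 0.320 against 0.0762 in protein-coding genes. By annotation alone they comprised 3 in tRNA genes, 4 in snoRNA genes, 1 in an rRNA gene, 13 in other non-coding genes or pseudogenes and 9 outside annotated genes. Among the 13 were sites of AT3G06365 with mean fractions of 0.646 (chr3:14202849) and 0.721 (chr3:14203049), near the 18S site (chr3:14198038). Whether the sites of AT3G06365 and of AT2G03875, described next, are in rRNA was not tested. A site in AT2G03875 (an RNA of no annotated function, chr2:8864-8892) reached 0.923 in shoot and was called in 4 tissues, and its 29-base window occurs at 2 places in the genome. A tRNA-Lys gene, AT4G15775, was called in root at 0.861. Other nuclear sites had 101 in annotated tRNA genes with a median of 0.904 and 44 in annotated rRNA genes with 0.799. Few of the called sites in genes annotated as tRNA or rRNA were thus GΨG.

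The tissue labels were checked against marker genes. AP3, PI and AG were highest in flower, SHP1 and SHP2 in silique, PYK10, NRT2.1 and IRT1 in root, CESA4, CESA7 and CESA8 in stem, LHCB1.1 and RBCS1A in rosetta leaf, and CRA1, CRC, OLEO1 and SESA3 in seed. The seed storage genes were also high in silique (2043 to 2938 TPM for these 4), where seeds develop.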

How the data were processed

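Groups follow the sample labels, and plant ages the paper's methods section. The authors mapped reads to TAIR10 (Ensembl) with their BID-seq pipeline, summed the replicates of a tissue, and deposited the gap ratio converted by a calibration curve to a Ψ fraction, with the result of a P value-based filter whose threshold is not given in the sources used here. Per-gene expression was deposited as TPM, with 2 columns per tissue except rosetta leaf and seed, which have 1 (averaged here, pseudocount 1). The labels do not say which libraries the TPM columns came from. Read depth per site and values per library were not analysed here.

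Sites were placed on the RefSeq TAIR10.1 genome, whose sequence matched the stated motif at 100% of nuclear sites. The transcript with the longest coding sequence was used. The value of GΨG minus that of the comparison was tested over 9 tissues by an exact two-sided sign-flip permutation test with Benjamini-Hochberg adjustment over 13 tests (threshold 0.05). This test was tested on simulated data in which sites were shuffled separately in each tissue. Such data do not hold the sharing of sites between tissues, so the error rate under that sharing was not measured. Intervals are 95% Wilson intervals. Sites named are those called in all 9 tissues (10 by mean fraction, others by range), the 5 highest fractions, for each tissue the tissue-unique site with the largest gap among those with 9 values, the 5 genes with most sites, and the 3 commonest 7-base motifs with 2 sites each, besides sites that a group or count turns on, chosen after their values were seen. The members and lists were chosen with earlier results of these data known. The alternatives were a fraction minimum, protein-coding genes, genes that reach 1 TPM in every tissue, windows that occur once on chromosomes 1 to 5, means, uncalled sites, 10 bins, a pseudocount of 0.1, single TPM columns, the first transcript model and each tissue left out. Leaving out GGΨGUAG sites or intron second bases was chosen after seeing the data. Scripts ran under Python 3.11.15 with pandas 2.3.3, numpy 2.4.6, matplotlib 3.10.9 and scipy 1.17.1.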

Additional observations from a re-analysis of the deposited data

How the results depend on the processing

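Of 96 alternatives of the 13 tested differences, leave-one-out aside, 88 kept the direction and the side of the threshold. Leaving out the second bases of introns turned the GΨG minus GΨA difference in median fraction to 0.0042. The difference in median log2(TPM + 1) turned to -0.66 with a minimum fraction of 0.1 and to -0.021 in protein-coding genes, and was 0.33 without GGΨGUAG sites. The second codon base, at 4.40 percentage points, missed the threshold in genes that reach 1 TPM in every tissue (4.49), in windows that occur once (3.48) and without intron second bases (4.35), and the third codon base did so with a minimum fraction of 0.1 (1.94). With that minimum, the mean GΨG share of calls moved to 4.63% against 8.55% as reported, and that of GGΨGUAG to 14.8% against 19.6%. It also moved the difference in median fraction to -0.0473 from other sites, -0.305 from GΨA and -0.0261 from UΨG. The second-codon-base difference was 15.2 with it and 11.5 without GGΨGUAG sites. The difference in share above 0.5 was -5.79 percentage points in protein-coding genes (-9.54 as reported), and the coding share 7.29 without GGΨGUAG sites (4.41 as reported). The causes were not tested.

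Leaving out 1 tissue at a time gave differences in log2 TPM between -0.000437 (without seed) and 0.17 and second-codon-base differences between 3.81 and 5.87, and the other tested differences kept direction and call. No paired analysis was possible because the deposited fraction columns combine the replicates of a tissue and carry no replicate number. With the depth unknown, the error of single fractions could not be estimated.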

Other observations

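28 listed GΨG sites were called in no tissue. In each tissue more GΨG sites had a fraction above 0 than were called: 630 against 200 in flower, 591 against 233 in root and 432 against 157 in seed, where 53 sites had no value. Among the frequent 7-base motifs, ARL2 (a DnaJ-type protein related to root gravitropism) had a 5′ UTR site called in flower at 0.282, with an uncalled 0.519 in seed at a TPM of 0.3, and DUF5 a coding site called in stem at 0.222, with an uncalled 0.251 in seed. AT1G69350 was called in seed at 0.383 and listed at 0 in 7 tissues. A site of AT4G31354, outside its annotated exons, was called in seed at 0.903 and listed at 0.194 in cauline leaf, 0.138 in seedling and 0 in the other 6 tissues.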
